A study of Mus musculus with 24 samples.

Results

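Aldh1l1 and 3 protein-coding genes beside it on mouse chromosome 6, Klf15 and Slc41a3, which border it, and Iqsec1, which lies beyond Slc41a3, were followed in sorted astrocytes of 4 brain regions. These 4 genes, of 24421 names in each table, were selected on their log2 fold change between genotypes in these same libraries, because neighbours of Aldh1l1 had been seen to be higher in libraries labelled knockout. The difference between genotypes is therefore given for them as a description, and no p-value or call of that contrast is read as a test of them. All 4 had a row in each of 24 libraries and reached the minimum of 20 normalised reads in at least 3 libraries that was set for the fit.

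The libraries were made from GFP-positive cells sorted from C57BL6 mice aged 20 weeks, with 3 libraries in each of 8 groups. The groups labelled knockout were olfactory bulb, hippocampus, cortex and brainstem of NFIAfl/fl; Aldh1l1-CreER; Aldh1l1-GFP mice. The control groups were the same 4 regions of NFIAfl/fl; Aldh1l1-GFP mice, which have no Cre transgene. The floxed Nfia alleles and the GFP transgene, through which the cells were sorted, were shared by all 8 groups. Any treatment that activated the recombinase is not given in the sources used here, nor is whether a library came from 1 animal or several, so that p-values measure the spread between these libraries. By their labels, all libraries labelled knockout carried the CreER transgene and no control did. Recombination of Nfia and presence of the transgene therefore cannot be told apart. Both transgenes are named for the Aldh1l1 promoter. How much of the locus each contains, in how many copies and where it is inserted is not given in the sources used here. A gene-level row does not separate reads of a chromosomal gene from reads of a transgenic copy.

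Aldh1l1 encodes a cytosolic formyltetrahydrofolate dehydrogenase, which releases the formyl group of folate as carbon dioxide, and it is widely used as a marker of astrocytes and as a driver of astrocyte reporters and recombinases. Slc41a3 encodes a member of a family of magnesium transporters. Iqsec1 encodes an exchange factor that activates the small GTPase Arf6, which acts in endocytosis at synapses and adhesion sites. Klf15 encodes a Kruppel-like transcription factor that responds to glucocorticoids and controls amino acid and glucose metabolism in muscle and liver.

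In the GENCODE vM21 annotation of mm10 the order along chromosome 6 is Klf15, Aldh1l1, Slc41a3 and Iqsec1, within 526.11 kb. Klf15 lies at chr6:90462576-90475238, Aldh1l1 at chr6:90486427-90600203 and Slc41a3 at chr6:90604725-90646412, all on the plus strand. Iqsec1 lies at chr6:90656088-90988685 on the minus strand. The gaps between gene bodies are 11.2 kb from Klf15 to Aldh1l1, 4.52 kb from Aldh1l1 to Slc41a3 and 9.68 kb from Slc41a3 to Iqsec1. Several antisense and intronic models of the annotation overlap Aldh1l1 (among them Gm15756) and Iqsec1 (among them Gm44123) but had no row in the tables. Whether reads were counted by strand is not given in the sources used here, so that antisense reads may be included in these rows.

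The promoters of the 4 genes are printed because neighbours in 1 locus are compared here in a study of a nuclear factor I (NFI) protein. Each window runs from 250 bases before to 50 after a start site in RefSeq (GRCm38.p6, the mm10 build), 5′ to 3′ on the strand of the gene, with the NFI half-site TTGGC or its complement GCCAA in capitals. All 4 genes matched by symbol, and Iqsec1 had 2 windows. The Klf15 window is chr6:90462326-90462625, the Aldh1l1 window chr6:90550543-90550842, the Slc41a3 window chr6:90618996-90619295, and the Iqsec1 windows are chr6:90716480-90716779 (1) and chr6:90810074-90810373 (2).
Klf15: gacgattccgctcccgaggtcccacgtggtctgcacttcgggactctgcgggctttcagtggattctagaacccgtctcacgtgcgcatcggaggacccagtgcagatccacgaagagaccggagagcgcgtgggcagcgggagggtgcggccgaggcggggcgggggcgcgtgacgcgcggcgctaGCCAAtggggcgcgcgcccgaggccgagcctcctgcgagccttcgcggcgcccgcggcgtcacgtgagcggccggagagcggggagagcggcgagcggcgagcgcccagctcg
Aldh1l1: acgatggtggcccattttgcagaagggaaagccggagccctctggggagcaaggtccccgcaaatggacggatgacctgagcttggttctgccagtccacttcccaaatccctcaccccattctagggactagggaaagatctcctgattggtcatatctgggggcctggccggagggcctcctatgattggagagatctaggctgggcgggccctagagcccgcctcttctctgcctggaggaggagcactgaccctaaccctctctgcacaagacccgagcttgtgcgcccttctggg
Slc41a3: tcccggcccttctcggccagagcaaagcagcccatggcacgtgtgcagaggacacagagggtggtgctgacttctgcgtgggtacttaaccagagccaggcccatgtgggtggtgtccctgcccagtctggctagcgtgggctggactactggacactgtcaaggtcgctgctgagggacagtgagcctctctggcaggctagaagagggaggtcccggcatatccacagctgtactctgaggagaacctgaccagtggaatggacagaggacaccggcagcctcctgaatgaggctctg
Iqsec1 promoter 1: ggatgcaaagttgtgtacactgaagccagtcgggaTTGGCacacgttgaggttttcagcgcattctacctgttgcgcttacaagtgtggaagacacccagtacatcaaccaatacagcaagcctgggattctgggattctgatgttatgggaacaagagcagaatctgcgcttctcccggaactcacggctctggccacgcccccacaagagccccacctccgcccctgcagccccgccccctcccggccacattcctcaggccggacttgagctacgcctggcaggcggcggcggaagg
Iqsec1 promoter 2: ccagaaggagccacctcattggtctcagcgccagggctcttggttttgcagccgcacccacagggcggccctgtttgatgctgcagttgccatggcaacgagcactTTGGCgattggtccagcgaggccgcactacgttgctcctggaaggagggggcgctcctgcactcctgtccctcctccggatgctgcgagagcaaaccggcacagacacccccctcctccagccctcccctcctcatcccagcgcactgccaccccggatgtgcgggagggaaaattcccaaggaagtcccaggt

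The Klf15 start site coincides with the start of its gene body. The RefSeq start of Aldh1l1 lies 64.4 kb and that of Slc41a3 14.5 kb inside the longer GENCODE models. For Iqsec1 the starts of promoters 1 and 2 lie 272.2 and 178.6 kb inside. The windows differ most in base composition. The Klf15 window holds 47 CG dinucleotides and 73.3% G or C, against 9 and 60.0% for Aldh1l1, 8 and 61.0% for Slc41a3, and 15 or 16 for the Iqsec1 windows. The median of 32851 windows of this length was 7 CG dinucleotides. A NFI half-site was present once in the Klf15 window and once in each Iqsec1 window, and these letters were not in the Aldh1l1 and Slc41a3 windows. Of all 32851 windows 46.7% hold it on either strand. The full palindrome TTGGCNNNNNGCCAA is in none of the 5 windows and in 0.0365% of all windows. The E-box CACGTG, a site of circadian and other basic helix-loop-helix factors, occurs 3 times in the Klf15 window and once in the Slc41a3 window. It occurs in 7.15% of all windows, and at least 3 times in 0.0883% of them. The E-box letters hold a CG, and these shares are not of windows as rich in CG as that of Klf15.

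Recovered reads per library ranged from 1090777 (brainstem labelled knockout 3) to 24297573 (hippocampus labelled knockout 1). The row of Nfia goes against the label. It averaged 8003 to 11870 normalised reads in the 4 groups labelled knockout and 4528 to 6216 in the controls. Genotypes are therefore called by their labels here, and every direction given rests on them. Whether the labels match the genotypes was not tested. Which part of Nfia is floxed is not given in the sources used here, and a gene-level row does not show a deleted part alone. All 10 astrocyte markers, among them Aqp4 and Gja1, were detected in every group. By limma with an adjusted p under 0.05, 1 of the 10 was lower in libraries labelled knockout in olfactory bulb and 1 in hippocampus. In brainstem 1 was higher, in cortex 0 passed, and on average 2 were higher and 1 was lower. The median log2 fold change of the 10 was 0.39 in hippocampus and 0.43 in brainstem, and -0.05 in olfactory bulb and -0.10 in cortex. Choroid plexus markers, among them Ttr and Kl, were lower in libraries labelled knockout for 4 of 6 in hippocampus and for 5 of 6 over the average of regions (limma adjusted p under 0.05), and 0 of 6 passed in the other single regions. In hippocampus the 6 summed to 2211 to 6166 joint normalised counts in libraries labelled knockout and 72567 to 146890 in controls. In brainstem they summed to 4116 to 92963 in libraries labelled knockout and 51401 to 243654 in controls, in cortex to 359 to 8066 in libraries labelled knockout and 1669 to 65373 in controls, and in olfactory bulb to at most 69.2 in libraries labelled knockout and 125 in controls. Both tested ependymal markers of 4 were lower in hippocampus and on average. Their part in the genotype differences was not tested beyond fits with the choroid plexus markers as a covariate. Markers of neurons, oligodendrocytes and their precursors, microglia and endothelial cells were also detected in every group. None of them passed between genotypes in a region or on average. The 5 oligodendrocyte markers were highest in brainstem, summing to 47776 to 107895 joint normalised counts in libraries labelled knockout and 50803 to 87683 in controls. Rn45s, the ribosomal RNA precursor, took 13.5% to 25.6% of reads in every cortical and brainstem library and 20.8% in olfactory bulb labelled knockout 3, against 0.966% to 3.33% in the other 11 libraries of olfactory bulb and hippocampus, so that this share and the region cannot be told apart between those pairs of regions. In bulk libraries fewer cells of a type and less RNA per cell cannot be told apart. Values of a region are deposited normalised read counts, and SD is over 3 libraries. Log2 fold changes (libraries labelled knockout minus control) are on the log2(value + 5) scale, which understates changes of low genes such as Slc41a3.

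Aldh1l1 was higher in all 3 libraries labelled knockout than in any control in olfactory bulb, hippocampus and cortex, but not in brainstem. In olfactory bulb it had 1346, 1127 and 1183 normalised reads in libraries labelled knockout, against 992, 965 and 975 in controls. In hippocampus it had 1430, 1269 and 1441 in libraries labelled knockout, against 554, 849 and 930 in controls. The hippocampal groups were the furthest apart, and control 1 was the lowest of all 24 libraries. In cortex the values were 1234, 1286 and 1248 in libraries labelled knockout and 820, 1041 and 829 in controls. In brainstem they were 1165, 1010 and 919 in libraries labelled knockout and 635, 1275 and 673 in controls. Brainstem control 2 lay above every library labelled knockout of its region, and the other 2 controls lay below them all. The means were 1219 ± 114 in libraries labelled knockout and 977 ± 14 in controls of olfactory bulb (log2 fold change 0.31), and 1380 ± 96 in libraries labelled knockout and 777 ± 198 in controls of hippocampus (0.86). In cortex they were 1256 ± 27 in libraries labelled knockout and 897 ± 125 in controls (0.49), and in brainstem 1031 ± 124 in libraries labelled knockout and 861 ± 359 in controls (0.33; SD, n = 3 each; SE of each log2 fold change 0.20). Over the 4 regions the fitted average was 0.50 ± 0.10 (SE). The brainstem value was 0.65 without control 2.

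**Figure D1:**
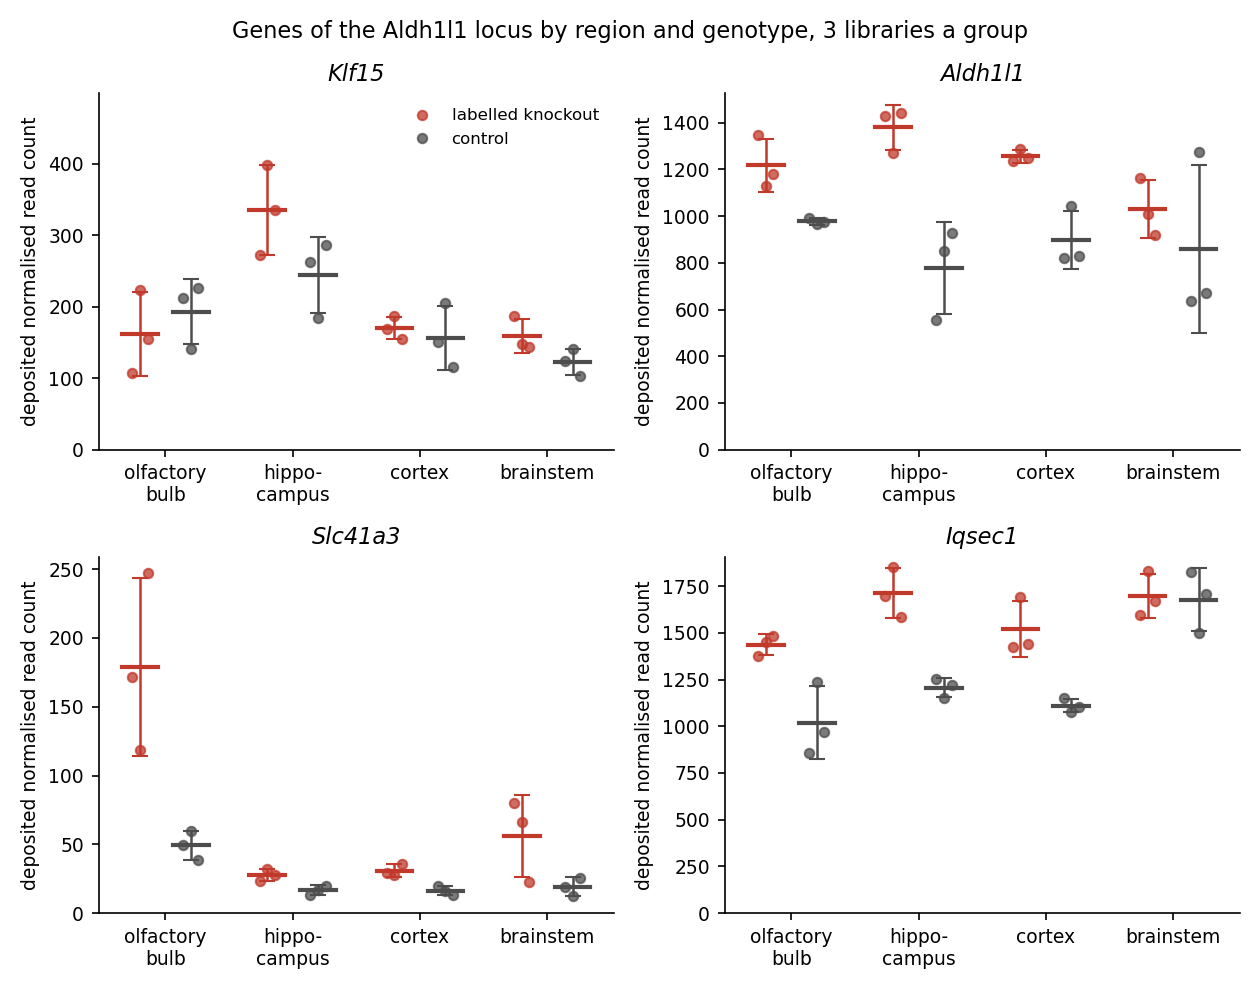
Deposited normalised read count (vertical axes, from 0) of the 4 genes in each region, with 3 libraries labelled knockout (red) left of 3 controls (grey). Points are libraries, thick bars means and thin bars SD. Cortex was normalised apart from the other regions, so levels are to be compared within a region. The red points lie above all grey points for Aldh1l1, Slc41a3 and Iqsec1 in olfactory bulb, hippocampus and cortex, and in brainstem for Klf15.

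The astrocyte markers moved with Aldh1l1 in some libraries. Over the 10 markers of the list the summed level, on 1 scale joint to all libraries, ranged in brainstem from 234138 to 294099 in libraries labelled knockout and from 108144 to 307411 in controls. The highest of these sums was that of brainstem control 2, the control that also had the highest Aldh1l1. Hippocampal control 1, lowest in Aldh1l1, had a marker sum of 303655, against 502444 and 509020 in the other 2 controls and 447555 to 546869 in libraries labelled knockout. In cortex the sums were 450892 to 554757 in libraries labelled knockout and 497435 to 683098 in controls, and in olfactory bulb 267476 to 280655 in libraries labelled knockout and 281800 to 332449 in controls. Thus in olfactory bulb every library labelled knockout had more Aldh1l1 and a lower marker sum than every control. With the mean log2 level of the markers as a covariate, chosen after the data were seen, the Aldh1l1 log2 fold change in brainstem was -0.11. The values in the other 3 regions and the average lay between 0.30 and 0.87 under that and the other alternatives that keep all libraries of the contrast. With 1 library left out they ran from 0.24 in olfactory bulb to 1.00 in hippocampus. The part of the markers in the brainstem value was not tested further.

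**Figure D2:**
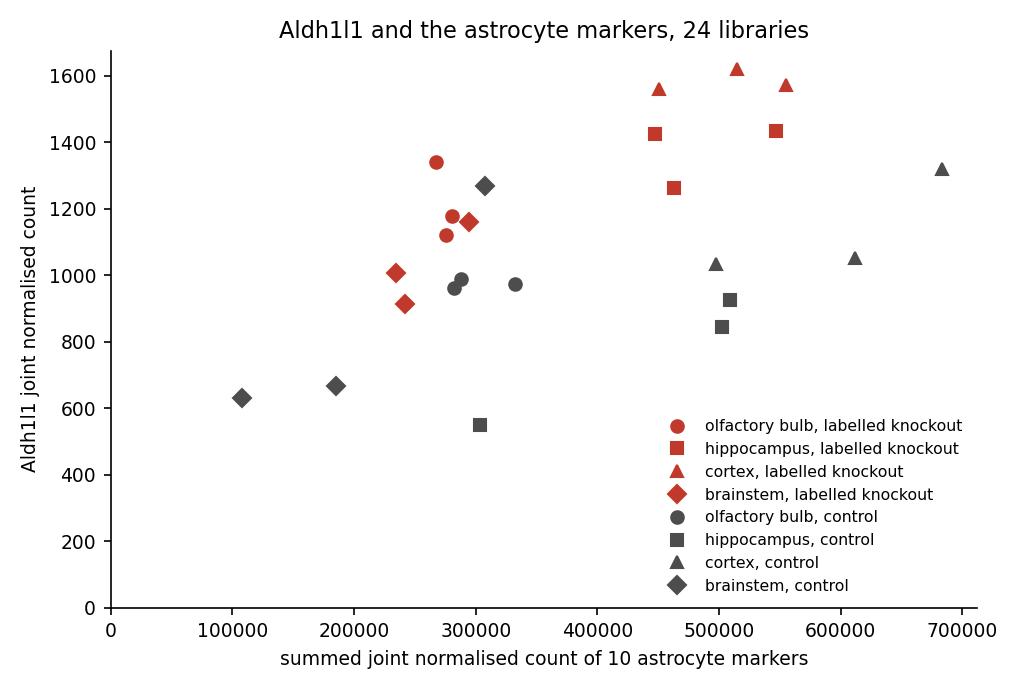
Aldh1l1 level (vertical axis) against the summed level of 10 astrocyte markers (horizontal axis), both as joint normalised counts, in 12 libraries labelled knockout (red) and 12 controls (grey), with a symbol for each region. Within olfactory bulb, hippocampus and cortex the red symbols lie above the grey ones, and the grey diamond with 1269 joint normalised counts is brainstem control 2.

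Slc41a3, the nearest gene downstream of Aldh1l1, had the lowest level and the largest average fold change of the 4 genes. In olfactory bulb it had 171, 119 and 247 normalised reads in libraries labelled knockout, against 49.8, 59.8 and 38.8 in controls. In hippocampus it had 23.3, 32.4 and 27.6 in libraries labelled knockout, against 13.4, 16.8 and 20.1 in controls. The groups did not overlap in either region, and the bulb values exceeded those of hippocampus in both genotypes. The highest, 247, is that of olfactory bulb labelled knockout 3, the bulb library with the high Rn45s share, and without it the log2 fold change in olfactory bulb was 1.46. In cortex it had 29.0, 27.6 and 36.0 in libraries labelled knockout, against 19.7, 15.9 and 13.4 in controls, again without overlap. In brainstem the values were 80.0, 65.9 and 23.0 in libraries labelled knockout and 19.3, 12.2 and 25.9 in controls. Library 3 labelled knockout lay among the brainstem controls. It is the shallowest library, and its value rests on 4 reads, where the other libraries had 6 to 197 reads of this gene. The mean was 3.62-fold higher in olfactory bulb (179 ± 64 in libraries labelled knockout, 49.5 ± 10.5 in controls), 2.94-fold in brainstem (56.3 ± 29.7 in libraries labelled knockout, 19.1 ± 6.8 in controls; SD, n = 3 each), 1.89-fold in cortex and 1.66-fold in hippocampus. In the same order the log2 fold changes were 1.71, 1.24, 0.75 and 0.59 (SE 0.39), and they averaged 1.07 ± 0.20 (SE). With a larger constant the values are smaller by construction. In hippocampus the value was 1.43 with the choroid plexus markers as a covariate, where those markers separate the genotypes, and in brainstem it was 1.73 without library 3 labelled knockout.

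Iqsec1, transcribed towards Slc41a3 from the other strand, was higher in libraries labelled knockout by about the same amount in 3 regions and not in brainstem. In olfactory bulb it had 1373, 1449 and 1484 normalised reads in libraries labelled knockout, against 855, 1235 and 969 in controls. In hippocampus it had 1698, 1854 and 1585 in libraries labelled knockout, against 1251, 1150 and 1220 in controls. In cortex it had 1424, 1692 and 1442 in libraries labelled knockout, against 1149, 1078 and 1103 in controls. No control of these 3 regions reached the lowest library labelled knockout of its region. In brainstem the values were 1597, 1828 and 1672 in libraries labelled knockout and 1826, 1496 and 1710 in controls, and the groups overlapped fully. The log2 fold change was 0.51 in olfactory bulb, 0.50 in hippocampus and 0.45 in cortex, against 0.02 for brainstem (SE 0.14), with an average of 0.37 ± 0.07 (SE).

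Klf15, upstream of Aldh1l1, had a mean in olfactory bulb that was lower in libraries labelled knockout, and higher means in the other 3 regions. In olfactory bulb it had 107, 223 and 156 normalised reads in libraries labelled knockout, against 212, 141 and 226 in controls. In hippocampus it had 273, 399 and 335 in libraries labelled knockout, against 263, 184 and 286 in controls. The groups overlapped in both regions. In cortex it had 169, 187 and 155 in libraries labelled knockout and 150, 205 and 116 in controls. In brainstem it had 187, 148 and 144 in libraries labelled knockout, against 124, 140 and 104 in controls, the single region without overlap. The log2 fold change was -0.28 in olfactory bulb but 0.46 in hippocampus, 0.37 in brainstem and 0.15 in cortex (SE 0.26), and the average was 0.17 ± 0.13 (SE). Leaving out single libraries moved the bulb value between -0.54 and -0.02 and the cortical value between -0.05 and 0.35. A joint increase of the 4 genes was thus not seen for Klf15 in olfactory bulb or for Iqsec1 in brainstem.

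**Figure D3:**
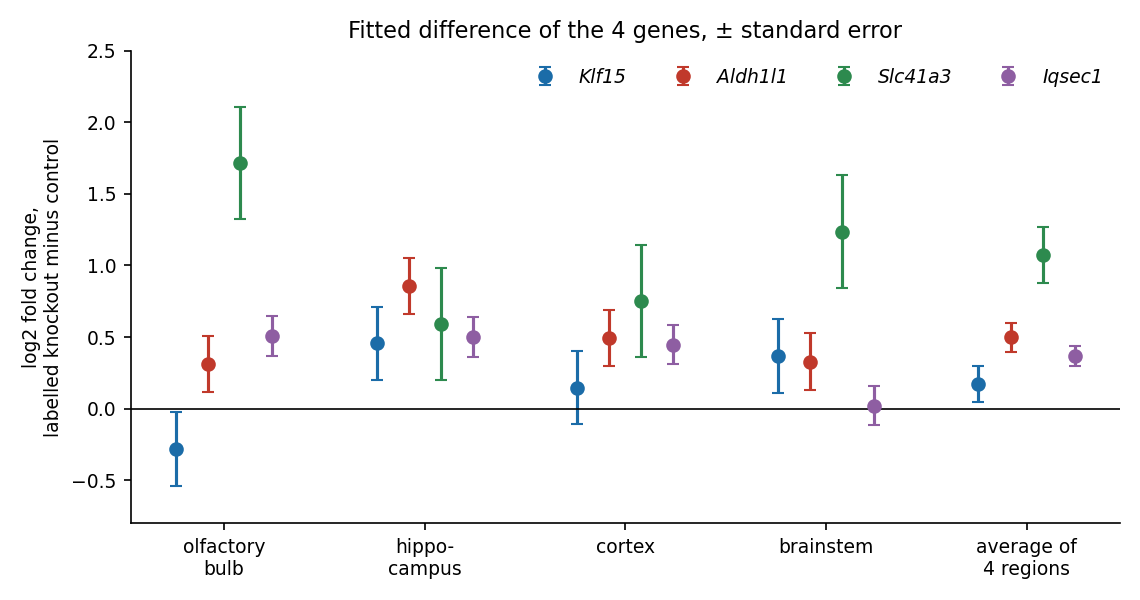
Fitted log2 fold change (libraries labelled knockout minus control, vertical axis) of the 4 genes in each region and averaged over the 4 regions. Points are estimates and bars standard errors from 24 libraries. Slc41a3 has the largest value in olfactory bulb (1.71), cortex (0.75) and brainstem (1.24), Aldh1l1 in hippocampus (0.86), and Klf15 is below 0 in olfactory bulb.

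Set beside all 12654 genes tested, 3 of the 4 genes had groups without overlap, higher in libraries labelled knockout, in olfactory bulb, where 7.18% of genes did. In hippocampus it was 3 of 4 (9.76% of genes), in cortex 3 of 4 (7.21%) and in brainstem 1 of 4 (5.4%). Aldh1l1, Slc41a3 and Iqsec1 did so in at least 3 regions, as did 1.18% of genes, and had values above 0 in all 4 regions, as did 11.5% of genes. By limma with an adjusted p under 0.05, the 4 genes gave 0 calls in olfactory bulb, cortex and brainstem, where 0.0158%, 0.103% and 0.545% of genes were called higher. In hippocampus Aldh1l1 and Iqsec1 passed, among 0.711% of genes called higher, and for the average Aldh1l1, Slc41a3 and Iqsec1 passed, among 2.77%. Nothing is read from these counts, since this contrast chose the genes. By size of the log2 fold change Slc41a3 was 10th from the top in olfactory bulb and Aldh1l1 321st in hippocampus, and Klf15 was 9944th in olfactory bulb.

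The choice was made on the difference between genotypes and not on how that differs among regions, which was tested. These tests use the same values of the regions, so they are not independent of the choice. No gene of the locus passed the F test of the difference of the genotype effect among the 4 regions, which 0.0553% of genes did (limma adjusted p 0.84 for Aldh1l1, 0.83 for Slc41a3, 0.69 for Iqsec1 and 0.84 for Klf15). Iqsec1 came nearest, with an unadjusted p of 0.053 for the F test. Its effect exceeded that in brainstem by 0.49 in olfactory bulb, 0.48 in hippocampus and 0.43 in cortex on the log2 scale (SE 0.19 each), with adjusted p of 0.50, 0.64 and 0.60. The effect on Slc41a3 was 1.12 ± 0.55 (SE) larger in olfactory bulb than in hippocampus and that on Klf15 0.74 ± 0.36 (SE) smaller, both with an adjusted p of 0.79. The spread between libraries leaves room for differences of this size, and the missing calls do not show that the regions were alike.

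Other genes around Aldh1l1, taken by position and not by how they moved, were compared between genotypes. The annotation has 68 other genes within 1 Mb of Aldh1l1, of which 32 had a row and 11 were tested. Of the 21 untested genes 15 were vomeronasal receptors of the Vmn1r family, and 17 had no read in any library. None of the 11 passed in any single region by limma. Of all genes 0.0869% passed in either direction in olfactory bulb and 2.51% in hippocampus, and 0.324% and 0.774% did in cortex and brainstem. At an unadjusted p under 0.05 there were 0 of the 11 in olfactory bulb, 1 each in hippocampus and cortex, and 2 in brainstem. EdgeR and DESeq2 on recovered reads also called none of them in a single region. The medians of the 11 log2 fold changes were 0.01, 0.08, 0.05 and -0.19 in the same order, against -0.01 to 0.00 over all genes tested. Groups without overlap, higher in libraries labelled knockout, were seen for 2 of the 11 in hippocampus (Wnt7a and Tmem43), for 1 each in cortex (Chchd4) and brainstem (Wnt7a), and for 0 in olfactory bulb, and these genes are named after their values were seen. Of all genes tested, 9.76% in hippocampus, 7.21% in cortex, 5.4% in brainstem and 7.18% in olfactory bulb had such groups.

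The nearest tested genes outside the locus had estimates close to 0 in 3 regions. Their SE was large, so that differences of the size seen for Aldh1l1 or Iqsec1 could have been missed. Zxdc, a zinc finger gene 82.9 kb upstream of Aldh1l1, averaged 163 ± 31 normalised reads in libraries labelled knockout and 166 ± 52 in controls in olfactory bulb (log2 fold change 0.01). Its log2 fold changes were 0.08 in hippocampus, 0.05 in cortex and -0.80 in brainstem (SE 0.50), where library 3 labelled knockout had 23.0 normalised reads and the other 5 libraries 144 to 246. Nup210, a nuclear pore gene 412.9 kb downstream of Aldh1l1 and next to Iqsec1, had log2 fold changes of -0.10, -0.05, -0.06 and -0.87 in the 4 regions (SE 0.60). Over the average of regions 1 of the 11 genes passed, where 5.86% of all genes did. This was Wnt7a, a secreted Wnt ligand 763.8 kb downstream of Aldh1l1, with 0.59 ± 0.12 (SE) on the log2 scale and a limma adjusted p of 0.0036. Wnt7a had 192, 138 and 151 normalised reads in hippocampal libraries labelled knockout, against 80.4, 92.1 and 137 in controls, and 339, 267 and 276 in brainstem libraries labelled knockout, against 140, 226 and 151 in controls. Groups did not overlap in these 2 regions. The call was lost with the choroid plexus markers as a covariate (adjusted p 0.36) and held in the other alternative analyses. With that covariate the average calls over all genes went from 741 to 80. Without brainstem control 2, Wnt7a and Chchd6 passed in brainstem, among 889 of 12599 genes. Chchd6 was lower there, with 10.7 ± 9.8 normalised reads in libraries labelled knockout and 42.0 ± 10.2 in controls (SD, n = 3 each). Its log2 fold change in brainstem with all libraries was -1.84 ± 0.54 (SE).

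**Figure D4:**
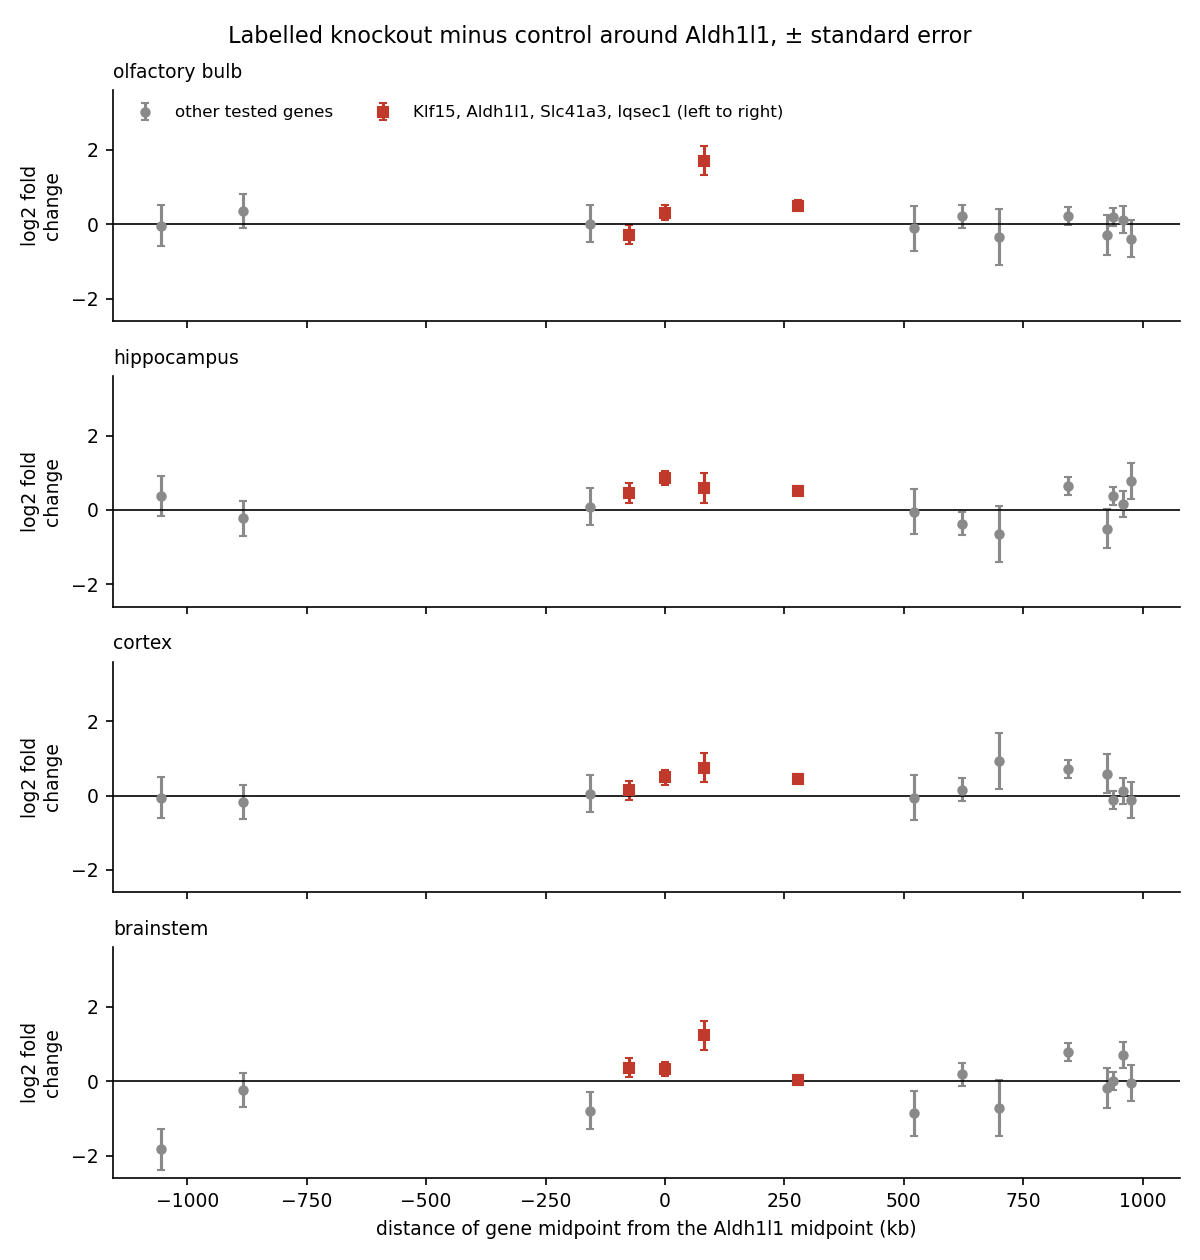
Log2 fold change (libraries labelled knockout minus control, vertical axes) of Klf15, Aldh1l1, Slc41a3 and Iqsec1 (red squares, left to right) and of the 11 other tested genes within 1 Mb (grey circles) by the distance of the gene's midpoint from that of Aldh1l1 (horizontal axis, kb), 1 panel for each region. Bars are standard errors. The nearest grey circle on either side of the red squares (Zxdc left, Nup210 right) lies near 0 in olfactory bulb, hippocampus and cortex, while the 11 grey circles together run from -0.65 to 0.78 in hippocampus and from -0.17 to 0.92 in cortex, and the highest red square is Slc41a3 in olfactory bulb (1.71).

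Levels across regions were compared on the joint scale, since the deposited scale of cortex differs from that of the other regions. Per kb of exon Aldh1l1 had the highest mean of the 4 genes in every group, with 227 to 351 joint normalised counts in groups labelled knockout and 171 to 252 in controls. Iqsec1 followed with means of 123 to 165 in groups labelled knockout and 87.7 to 144 in controls. Klf15 had 56.9 to 120 in groups labelled knockout and 43.7 to 87.2 in controls. Slc41a3 was lowest in all 4 control groups, with 5.73 to 16.9, and in 3 of the groups labelled knockout, with 9.49 to 19.3. In olfactory bulb labelled knockout it had 61.3 ± 22.0, against 57.8 ± 20.8 for Klf15 (SD, n = 3), which do not differ beyond their spread.

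In controls Iqsec1, Klf15 and Slc41a3 differed among the 4 regions, each in its own order, where 23.4% of genes did (limma F test over the control groups). Iqsec1 was highest in brainstem, with 1668 ± 165 joint normalised counts, followed by 1406 ± 41 in cortex, 1202 ± 51 in hippocampus and 1017 ± 194 in olfactory bulb (SD, n = 3; adjusted p 0.0012). Olfactory bulb was below brainstem by 0.72 (log2, adjusted p 2.8e-04, where 19.4% of genes passed) and below cortex by 0.48 (adjusted p 0.023, 8.55%), and hippocampus was below brainstem by 0.47 (adjusted p 0.032, 7.54%). Cortex and hippocampus, neighbours in this order, differed by 0.23 with an adjusted p of 0.52. The F test of Iqsec1 held in every alternative analysis, with adjusted p up to 0.044. Of the pairs, that of olfactory bulb and cortex was lost on the deposited scale (adjusted p 0.53) and without olfactory bulb control 1 or 3 or any cortical control. The hippocampal pair was lost without hippocampal control 2 or 3 or brainstem control 1 or 3, and the pair of olfactory bulb and brainstem with the choroid plexus covariate (adjusted p 0.55).

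Klf15, in controls, was highest in hippocampus, with 243 ± 53 joint normalised counts, against 199 ± 57 in cortex, 193 ± 46 in olfactory bulb and 122 ± 18 in brainstem (SD, n = 3; F test adjusted p 0.036). Only hippocampus and brainstem differed as a pair, by 0.95 on the log2 scale (adjusted p 0.018). The F test did not hold without hippocampal control 1 or 3 or brainstem control 1 or 3, with an adjusted p of up to 0.18, nor in 4 of the other alternatives, among them the astrocyte marker covariate (0.17). The pair was lost without hippocampal control 1 or 3 or brainstem control 3. Slc41a3 was highest in olfactory bulb, with 49.3 ± 10.4 joint normalised counts, against 20.7 ± 4.0 in cortex, 19.0 ± 6.8 in brainstem and 16.7 ± 3.3 in hippocampus (SD, n = 3; F test adjusted p 0.039). Olfactory bulb exceeded brainstem by 1.2 (log2, adjusted p 0.030) and hippocampus by 1.32 (adjusted p 0.029), whereas its difference of 1.07 ± 0.39 (SE) from cortex did not pass (adjusted p 0.097), nor did any pair of the other 3 regions. The F test was lost with an adjusted p of up to 0.20 in 9 of 24 fits that left out 1 library, 8 of them a control (each of olfactory bulb, 1 and 2 of hippocampus, 2 and 3 of cortex, 1 of brainstem) and the other olfactory bulb labelled knockout 1. It was also lost in 6 of the other alternatives, at up to 0.14. The pair with brainstem was lost without olfactory bulb or brainstem control 1 or 2 and in 3 alternatives, at up to 0.18, and that with hippocampus without olfactory bulb or hippocampal control 1 or 2 and in 3 alternatives, at up to 0.10.

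Aldh1l1 in controls had 1136 ± 160 joint normalised counts in cortex, 974 ± 14 in olfactory bulb, 856 ± 358 in brainstem and 774 ± 197 in hippocampus (SD, n = 3), and the regions did not pass (F test adjusted p 0.10). Without brainstem control 2 the adjusted p was 0.0019, with voom 0.015, and with the astrocyte marker covariate 0.019. Brainstem controls alone ran from 631 to 1269 joint normalised counts, where all 12 controls ran from 551 to 1321.

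Among libraries labelled knockout Slc41a3 and Klf15 differed among regions, where 21.5% of genes did. Values of these libraries entered the contrast that chose the genes, as did those of the controls. The tests among regions of either genotype are thus not independent of that choice. Slc41a3 had 178 ± 64 joint normalised counts in olfactory bulb, against 56.1 ± 29.6 in brainstem, 38.9 ± 5.7 in cortex and 27.6 ± 4.5 in hippocampus (SD, n = 3; F test adjusted p 1.1e-04). Olfactory bulb exceeded hippocampus by 2.44, cortex by 2.01 and brainstem by 1.68 on the log2 scale, where 8.03%, 8.07% and 17.2% of genes passed (adjusted p 7.2e-05, 7.9e-04 and 0.0030). This F test held in every alternative analysis, with an adjusted p of 0.0038 without olfactory bulb labelled knockout 3. Klf15 had 334 ± 63 joint normalised counts in hippocampus, against 215 ± 20 in cortex, 161 ± 58 in olfactory bulb and 159 ± 24 in brainstem (SD, n = 3; F test adjusted p 0.0058). Hippocampus exceeded olfactory bulb by 1.07 and brainstem by 1.04 on the log2 scale (adjusted p 0.0060 and 0.0055, the second among 14.6% of genes), and the F test gave 0.0504, just outside the threshold, without hippocampus labelled knockout 2. The pair with olfactory bulb was lost without that library or olfactory bulb labelled knockout 1, and with the choroid plexus covariate (adjusted p 0.099).

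For Aldh1l1 and Iqsec1 the libraries labelled knockout did not pass across regions. Aldh1l1 had 1585 ± 33 joint normalised counts in cortex, 1375 ± 96 in hippocampus, 1214 ± 114 in olfactory bulb and 1027 ± 124 in brainstem (SD, n = 3; F test adjusted p 0.089). It passed without hippocampal control 1 or brainstem control 2, at as low as 0.015, and in 3 other alternatives, at as low as 0.0042 with its 12 libraries alone. The pair of cortex and brainstem passed by itself, with 0.63 on the log2 scale and an adjusted p of 0.033, where 12.3% of genes did. It was lost in 5 alternatives, with an adjusted p of up to 0.32 on the deposited scale, and without any 1 cortical library labelled knockout or brainstem labelled knockout 2 or 3. Iqsec1 had 1917 ± 188 in cortex, 1706 ± 134 in hippocampus, 1692 ± 118 in brainstem and 1430 ± 55 in olfactory bulb (SD, n = 3; F test adjusted p 0.13). Brainstem, the highest region of this gene in controls, was not the highest in libraries labelled knockout. The change of order itself is the difference of the genotype effect, which did not pass.

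**Figure D5:**
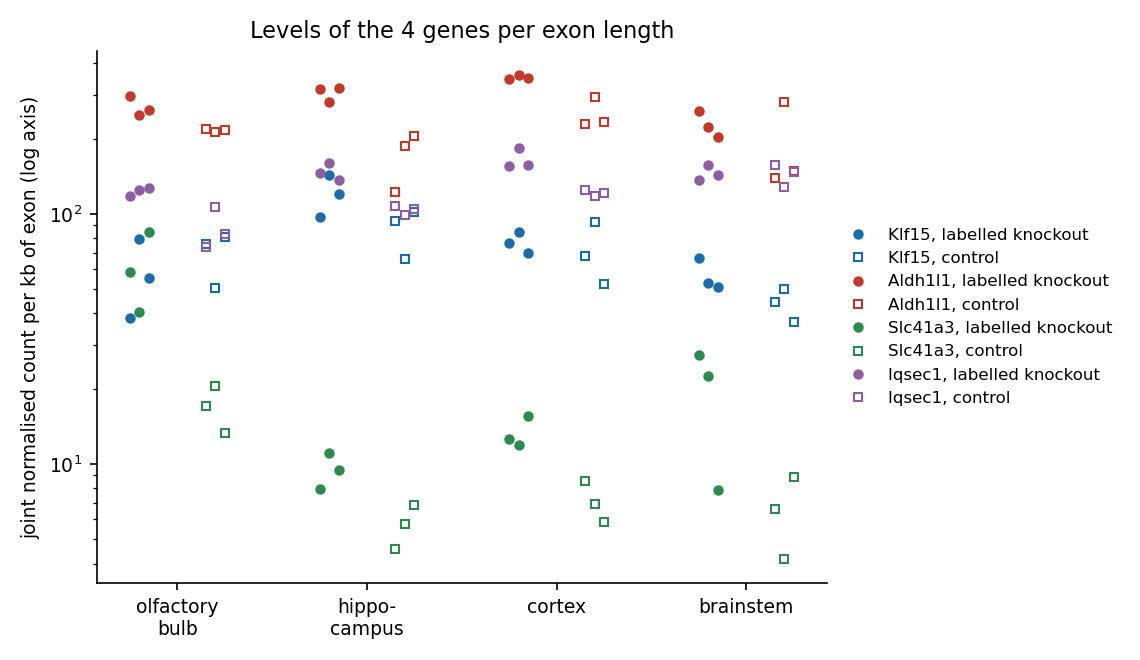
Joint normalised count per kb of exon (vertical log axis) of the 4 genes in each region, with libraries labelled knockout (filled, left) and controls (open, right). Aldh1l1 is the highest gene by mean in all 8 groups, and Slc41a3 the lowest in all but olfactory bulb labelled knockout.

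Library by library the 4 genes did not go together. Over the 24 libraries, after removal of the 8 group means, the Pearson correlation of log2 levels ranged from -0.44 for Aldh1l1 and Iqsec1 to 0.22 for Slc41a3 and Iqsec1 over the 6 pairs. It was -0.00 for Aldh1l1 and Slc41a3, the closest neighbours. These values are a description and share the scaling of each library. Without that removal, Aldh1l1 correlated with Klf15, Slc41a3 and Iqsec1 at 0.32, 0.30 and 0.34, and many genes elsewhere were more like it. The 5 genes most like Aldh1l1 over 24 libraries were Cs (citrate synthase, 0.90), the transcription factor gene Rfx4 (0.87), Gareml (0.87), Rnf180 (0.87) and Pmm1 (0.86), none of which is on chromosome 6 where the annotation places it. Over the 12 controls they were Pcdh7 (0.97), the neurotensin receptor gene Ntsr2 (0.95), Shd (0.95), Hadh (0.95) and Cs (0.94). The closest to Slc41a3 were the growth factor gene Fgf7 (0.86), the giant cadherin gene Fat4 (0.84) and Suclg2 (0.81), of which Suclg2 is also on chromosome 6, at chr6:95473009-95718800. Iqsec1 was most like the hedgehog inhibitor gene Hhip (0.77), the clock repressor gene Nr1d2 (0.76) and Elp2 (0.76), and Klf15 most like Rprd2 (0.85), Crtc3 (0.84) and Ubqln2 (0.79).

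Genes that share the pathways or families of the 4 were compared between genotypes as a setting for them. Of 28 genes of folate metabolism 23 were tested, and none passed in a single region. Over the average of regions 2 of the 23 passed, where 5.86% of all genes did. Aldh1l2, the mitochondrial counterpart of Aldh1l1, fell by 1.03 on the log2 scale in libraries labelled knockout (limma adjusted p 0.0056). Gldc, the glycine decarboxylase of the glycine cleavage system, rose by 0.51 (adjusted p 0.049). The Gldc call was lost in 21 of 24 fits that left out 1 library, with an adjusted p of up to 0.11, and in 7 of 13 other alternatives. With the choroid plexus covariate its adjusted p was 0.86 and its average 0.16. Aldh1l2 averaged 19.4 ± 6.9 normalised reads in olfactory bulb labelled knockout and 74.9 ± 51.9 in controls, and 39.8 ± 16.8 in hippocampus labelled knockout and 69.2 ± 2.4 in controls. Gldc averaged 1654 ± 55 in olfactory bulb labelled knockout and 1189 ± 126 in controls, and 87.8 ± 49.8 in brainstem labelled knockout and 46.4 ± 14.4 in controls (SD, n = 3 each). The medians of the 23 genes lay between -0.01 and 0.16 in the 4 regions.

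Among 15 tested genes of magnesium transport, 1 fell in hippocampus and over the average, where 2.51% and 5.86% of all genes passed in either direction. This was Nipal2, with 11.5 ± 6.2 normalised reads in hippocampus labelled knockout and 67.0 ± 23.0 in controls (SD, n = 3 each; log2 fold change -2.16, adjusted p 0.011), and an average of -1.0 (adjusted p 0.010). The choroid plexus markers were also lower in hippocampus, for 4 of 6. With them as a covariate the hippocampal call of Nipal2 was lost (adjusted p 0.63). Those markers separate the genotypes there, and calls over all genes in hippocampus went from 317 to 4 with that covariate. The loss thus does not set Nipal2 apart from other genes called there. Over the alternatives that keep all libraries of the contrast, its log2 fold change in hippocampus ran from -2.55 to -1.45. The hippocampal call was also lost without hippocampal control 1 or hippocampus labelled knockout 2. The average call was lost in 5 of 13 alternatives, among them edgeR and the choroid plexus covariate (adjusted p 0.41). The list's median was -0.19 in hippocampus and between -0.29 and -0.03 in the other regions. Slc41a1 and Slc41a2, the paralogs of Slc41a3, did not pass in any comparison of genotypes. Of the other exchange factors and partners of Arf6 (15 tested), the other Kruppel-like factors (12 tested) and 12 tested genes of amino acid breakdown tied to Klf15 in muscle or liver, none passed in any region or on average.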

How the data were processed

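RNA of sorted cells (5 ng a library) was made into libraries by the NuGEN Trio kit, per the labels' protocols. The submitters' processing notes name FastQC, STAR 2.5.0a, mm10 and DESeq2 1.20.0, with no roles. The counting tool, annotation and strand setting are not given in the sources used here.

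The authors deposited 1 table per library of normalised signal, which are whole reads divided by 1 factor per library (within 0.01 read), so that reads could be recovered. Cortical factors were about 1.26 times those of a joint median-of-ratios scale of 24 libraries, and the others 0.99 to 1.00 times. Regions were therefore compared on the joint scale and genotypes on the deposited one. Of 24421 names, 27 dates and 4 rows of repeated names were left out.

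Genes with at least 20 in at least 3 libraries (12654 on the deposited scale, 12744 on the joint) were fitted by limma 3.58.1 (R 4.3.3) on log2(value + 5), with 8 group means, an intensity trend and robust moderation. Tests were two-sided with Benjamini-Hochberg adjustment over all genes of a contrast. The fit was tested on simulated data.

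The 4 genes, the lists and the tests were chosen with earlier results of these data known. Named were the 4 genes, Nfia, position neighbours that passed and the nearest tested on each side, the genes most correlated with each, and of each list up to 4 that passed. Alternatives were other constants and filters, edgeR 4.0.16, DESeq2 1.42.0, voom with sample weights, the other scale, the libraries of the comparison alone, replicate blocks, marker covariates, other windows and leaving out each library.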

Additional observations from a re-analysis of the deposited data

How the results depend on the processing

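The counts of calls among the 4 genes describe the contrast that chose them. The number of the 4 genes called higher in libraries labelled knockout (limma, adjusted p under 0.05) was 0 in olfactory bulb. It was 1 with a constant of 20, with the region's libraries alone and with a choroid plexus or astrocyte marker covariate, and 2 with DESeq2 and with voom. In hippocampus it was 2, and 1 with a filter of 5, with voom and with the region's libraries alone, and 0 with the choroid plexus covariate. In cortex it was 0, and 1 with voom and with the astrocyte covariate. With each library left out in turn it ranged from 0 to 1 in olfactory bulb, 0 to 2 in hippocampus and 0 to 1 in brainstem. In hippocampus it fell below 2 in 17 of the 24 fits. On average it was 3, and 2 with the choroid plexus covariate. Neighbours within 1 Mb called on average were 1, against 0 with the choroid plexus covariate or a window of 0.5 Mb and 2 with 2 Mb, and in brainstem leave-one-out counts ranged from 0 to 2. Genes of the 4 that differed among control regions were 3, and 1 with the controls alone (leave-one-out 1 to 4). Among regions labelled knockout they were 2, and 4 with voom and with the astrocyte covariate (leave-one-out 1 to 3). The cause of these moves was not tested.

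Of 756 refits of the 20 log2 fold changes, 749 moved by less than 1 SD and 7 by more. SD is here the spread of a gene between libraries within groups. Many refits could not move a value, since a region's value depends neither on the filter nor on libraries left out of other regions. The count is thus not a measure of stability. Replicate numbers were not taken to pair the libraries, as no set of groups had every same-numbered correlation of deviations over 0.1. These ran from -0.20 to 0.32, against -0.30 to 0.23 for different numbers. In 3 of the 16 pairs of groups all same-numbered values exceeded all others: olfactory bulb and hippocampal controls (0.095 to 0.32, others up to 0.043), hippocampus labelled knockout and control (0.037 to 0.32, up to 0.031), and cortex and brainstem labelled knockout (0.048 to 0.12, up to 0.046). Libraries were also fitted with the number as a replicate block, or with those of the same genotype and number taken as correlated. In either fit 0 of the 4 genes were called in olfactory bulb, 2 in hippocampus and 3 on average, as in the main fit. The F test of Slc41a3 among control regions was lost with the block (adjusted p 0.0504), and the average call of Gldc in either fit. Average calls over all genes were 824 with the block and 652 with the correlation. The main comparisons of regions and the average over regions treat same-numbered libraries as independent. Calls over all genes were 11 in olfactory bulb (11 to 76 over the alternatives that keep all libraries of the contrast, 3 to 27 with 1 library left out), 317 in hippocampus (4 to 636, and 90 to 466), 41 in cortex (22 to 141, and 16 to 65), 98 in brainstem (0 to 167, and 17 to 889) and 741 on average (80 to 999, and 534 to 1288). The lowest counts in hippocampus and on average, 4 and 80, were those with the choroid plexus covariate. The highest leave-one-out counts in brainstem and on average were those without brainstem control 2, and the next highest were 204 and 917. The difference of the effect among regions had 7 calls (0 to 86, and 0 to 89, the highest again without brainstem control 2). Depth limits Slc41a3 most, with as few as 4 reads in a library.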
